A study of Homo sapiens with 6 samples.

Results

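The genes described here encode voltage-gated ion channels and potassium channels. They are the rows of the deposited count table whose symbol begins with KCN, CACNA, CACNB, CACNG or SCN and has the form of a channel subunit: the potassium channel genes (KCN), the pore-forming and accessory subunits of voltage-gated calcium channels (CACN), and the alpha and beta subunits of voltage-gated sodium channels (SCN). The rule found 101 genes among the 31966 genes of the table, each with 1 row. All 101 were among the 135 protein-coding names of GENCODE v29 that have this form; the others were not analysed here. The cells were Kasumi-1, a human line established from an acute myeloid leukaemia. In 3 control samples the cells expressed a hairpin RNA against luciferase (shLUC), and in 3 FBL knockdown samples a hairpin RNA against FBL (shFBL), the gene of fibrillarin. Both hairpins were doxycycline-inducible, and both groups received doxycycline at 100 ng/ml for 72 h, so the controls share the drug and the induction with the knockdown. Libraries were made from total RNA, and the submitters name the data mRNA-seq. Whether replicates were separate cultures, or whether 1 or several hairpin sequences against FBL were used, is not stated in the labels, so the p-values reflect the spread among these 6 samples alone, and that spread may be technical.

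Ion channels of these families open a selective pore in a membrane in response to voltage, calcium, lipids or other signals. Voltage-gated sodium and calcium channels let in current that depolarises a cell, while potassium channels let out current that repolarises it and sets its resting potential. They are best known from nerve and muscle, but blood cells also use potassium channels to set the membrane potential, which acts on calcium entry, cell volume and growth; KCNH2 (the hERG channel) and KCNN4 (a calcium-activated channel of blood cells) are familiar from leukaemia and lymphocyte work. Fibrillarin, the product of FBL, is the methyltransferase of box C/D small nucleolar ribonucleoproteins, which place 2′-O-methyl groups on ribosomal RNA.

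Library totals ranged from 85556322 to 103148412 counts. FBL had 580.2, 549.5 and 544 CPM in the controls and 53.98, 32.4 and 44.9 CPM in the knockdown libraries, where CPM are counts relative to a library total that was scaled with TMM, the trimmed mean of M values. The mean fell from 558 ± 19.6 to 43.8 ± 10.8 CPM (mean ± SD, n = 3 per group), a log2 fold change of -3.67 ± 0.16 (standard error, SE) with an adjusted p of 3.93e-06 (edgeR quasi-likelihood test, Benjamini-Hochberg over the 18486 genes tested). The groups did not overlap. In this fit 32.8% of the tested genes passed an adjusted p of 0.05, with 15.8% higher and 17% lower in the knockdown. As for the labelled cell type, all 12 markers of the myeloid leukaemia list were tested and summed to between 8197 and 10807 CPM in the controls and between 6607 and 7739 CPM in the knockdown libraries; 3 rose (CD34, CEBPA and LYZ) and 1 fell (MPO), and PTPRC, the pan-leukocyte CD45 gene, had a mean under 1 CPM in both groups. In bulk RNA, fewer cells of a type and less RNA per cell cannot be told apart.

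All 101 channel genes had at least 1 count in some library, and 51 had a count in all 6. Detection at a useful depth was narrower. At least 10 counts in 3 libraries were reached by 48 genes, a mean of 1 CPM by 24, of 10 CPM by 8 and of 100 CPM by 2. A total of 10 counts or fewer over the 6 libraries was all that 43 genes had. The deposited table lists genes with at least 1 count, so presence in it is itself a weak criterion.

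Per length, channel mRNA in these cells came mainly from 2 genes. On the scale of the deposited RPKM values (reads per kilobase of gene length, scaled to library size), KCNH2 gave 48.5% of the sum over the 101 genes and the potassium channel beta subunit gene KCNAB2 gave 19.97%, as means over the 6 libraries; the 5 highest genes gave 84.3%. KCNH2 (ENSG00000055118, minus strand, chromosome 7, 150944961 to 150978315, GRCh38), which forms the rapid delayed rectifier of the heart, stood at 47.8 ± 5.95 RPKM in the controls and 54.0 ± 5.91 RPKM in the knockdown (mean ± SD, n = 3). KCNAB2, a cytoplasmic partner of Shaker-type channels, stood at 20.8 ± 2.04 RPKM in the controls and 20.97 ± 1.90 RPKM in the knockdown (mean ± SD, n = 3). Next came KCNK5, a tandem-pore background channel, at 9.29 ± 0.504 RPKM in the controls and 7.30 ± 0.633 RPKM in the knockdown (mean ± SD, n = 3), and KCNN4 at 6.43 ± 0.713 RPKM in the controls and 4.57 ± 0.478 RPKM in the knockdown (mean ± SD, n = 3). Those 4 levels were separated from each other by more than the SD of either neighbour. Below them, CACNB3 (2.16 ± 0.139 and 3.07 ± 0.229 RPKM) and KCNJ11 (2.14 ± 0.356 and 2.59 ± 0.366 RPKM) lay within their spread of each other in the controls. Altogether 10 genes had a mean RPKM of at least 1, and 67 were under 0.1. Summed RPKM of the channel genes was 91.4, 111.8 and 98.97 in the controls and 119.6, 100.4 and 105.6 in the knockdown libraries, so the groups overlapped. Channel genes made up between 0.0155% and 0.0186% of the summed RPKM of all genes in every library.

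**Figure D1:**
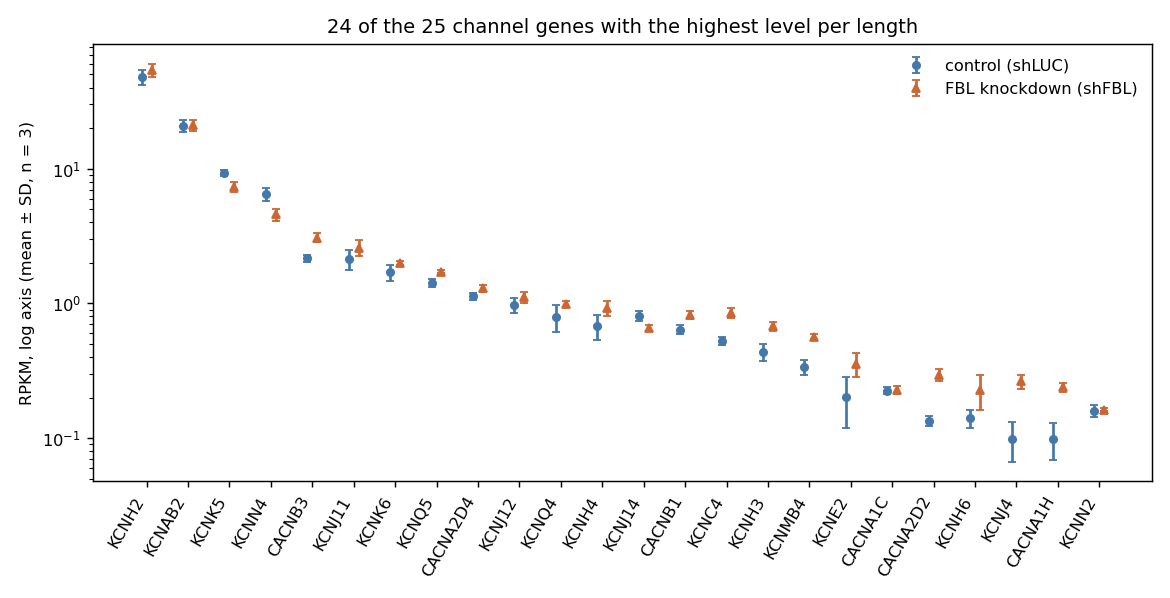
Deposited RPKM (log axis, mean ± SD over 3 libraries per group) of 24 of the 25 channel genes with the highest level per length, controls as blue circles and FBL knockdown as orange triangles. KCNH2 and KCNAB2 stand above all others with overlapping groups, KCNK5 and KCNN4 are lower in the knockdown, and many weaker genes such as CACNB3, KCNC4 and KCNH3 are higher.

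Sequences upstream of 3 start sites are shown because they belong to the gene with the largest rise (KCNC1), a gene that fell (KCNK5), and the most abundant gene (KCNH2). They are richer in GC than the median upstream window of the tested channel genes (65.8%) or of all promoters (58.0%). Each is the stretch of up to 250 bases upstream of the first RefSeq start (GRCh38.p14) that lies outside annotated exons. They are written 5′ to 3′ on the gene's strand. Capitals mark GC boxes, the letters GGGCGG on either strand, a motif known for Sp1-type factors. The positions are chr11:17734531-17734773 (plus strand, KCNC1), chr6:39229476-39229725 (minus strand, KCNK5) and chr7:150978322-150978571 (minus strand, KCNH2).
KCNC1: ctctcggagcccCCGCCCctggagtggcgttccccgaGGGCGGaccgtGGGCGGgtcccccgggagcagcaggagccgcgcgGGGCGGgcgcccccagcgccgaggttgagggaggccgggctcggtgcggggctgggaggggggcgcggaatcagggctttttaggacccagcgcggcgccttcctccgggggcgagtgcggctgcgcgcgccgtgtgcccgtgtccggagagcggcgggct
KCNK5: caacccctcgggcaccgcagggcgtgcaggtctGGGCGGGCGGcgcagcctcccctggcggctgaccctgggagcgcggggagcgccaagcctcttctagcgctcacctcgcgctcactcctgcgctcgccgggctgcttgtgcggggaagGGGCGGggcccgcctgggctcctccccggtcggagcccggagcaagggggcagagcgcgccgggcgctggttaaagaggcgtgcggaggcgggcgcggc
KCNH2: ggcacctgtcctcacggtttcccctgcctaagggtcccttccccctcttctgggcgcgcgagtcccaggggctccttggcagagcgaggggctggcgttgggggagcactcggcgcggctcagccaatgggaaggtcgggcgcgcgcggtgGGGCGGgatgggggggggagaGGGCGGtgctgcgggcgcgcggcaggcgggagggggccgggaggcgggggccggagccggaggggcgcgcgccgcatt
The KCNC1 stretch holds 4 GC boxes and 34 CpG dinucleotides in 243 bases and has a GC content of 79.0%. The KCNK5 stretch holds 3 GC boxes and 31 CpG at 77.2% GC, and the KCNH2 stretch 2 GC boxes and 29 CpG at 77.2% GC. All 3 stretches are thus GC-rich, but 3 picked genes do not describe the channel genes as a set. Median upstream GC content was 71.2% for the 12 channel genes called higher that had a window. It was 65.8% for the 34 tested channel genes with a window. Whether upstream sequence goes with the change was not tested.

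RefSeq upstream windows were matched for 74 of the 101 channel genes. GGGCGG, searched on both strands with overlapping matches counted, occurred in 47 of these 74 (63.5%) against 42.3% of 27305 promoters of the same length. Among tested channel genes it was found for 24 of 34 (70.6%), and among those called higher for 8 of 12 (66.7%). Both genes called lower had it. The E-box CACGTG was present in 5.41% of channel promoters against 6.49% of all, and TATAAA in 4.05% against 11.1%. Of the sites that make up the RE1 element, to which the repressor REST binds, the left part TTCAGCACC was present upstream of 3 channel genes (CACNG3, KCNH6 and KCNK3; 4.05% against 0.3% of all promoters) and the right part GGACAGC upstream of 8 (10.8% against 4.78%). KCNH6 and KCNK3 had both. These matches describe letters in a short window, and RE1 elements often lie elsewhere in a gene.

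Most channel genes that moved with FBL knockdown moved up. Of the 48 tested channel genes, 20 rose (41.7%) and 2 fell (4.17%), beside 15.8% higher and 17% lower among all tested genes. The largest rises were in KCNC1, KCND3, CACNA1G, KCNJ4, KCNK15, KCNIP3 and CACNA1H, and the falls were in KCNN4 and KCNK5, which are 2 of the 4 most abundant channel genes. Of these, KCND3 and CACNA1G had few counts and passed the filter on low counts only with the help of the knockdown libraries. Another 7 genes had an unadjusted p under 0.05 without passing the adjustment. The median log2 fold change was 0.39 over the 48 genes and -0.01 over all tested genes. It was positive in 38 genes and negative in 10. All 3 knockdown libraries lay above all 3 controls for 24 of 48 genes (22.1% of all tested genes) and below them for 4 (23.1% of all tested genes). The 22 genes past the threshold all had groups that did not overlap. A rise of at least 2-fold was called for 9 genes, and the 2 falls were 1.27-fold and 1.40-fold. DESeq2 called 19 higher and limma voom 20, and each called the same 2 genes lower. The genes called higher were not all the same. KCNMB3 and SCN4B lost their call with DESeq2, and KCNH6 lost its call with limma voom.

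**Figure D2:**
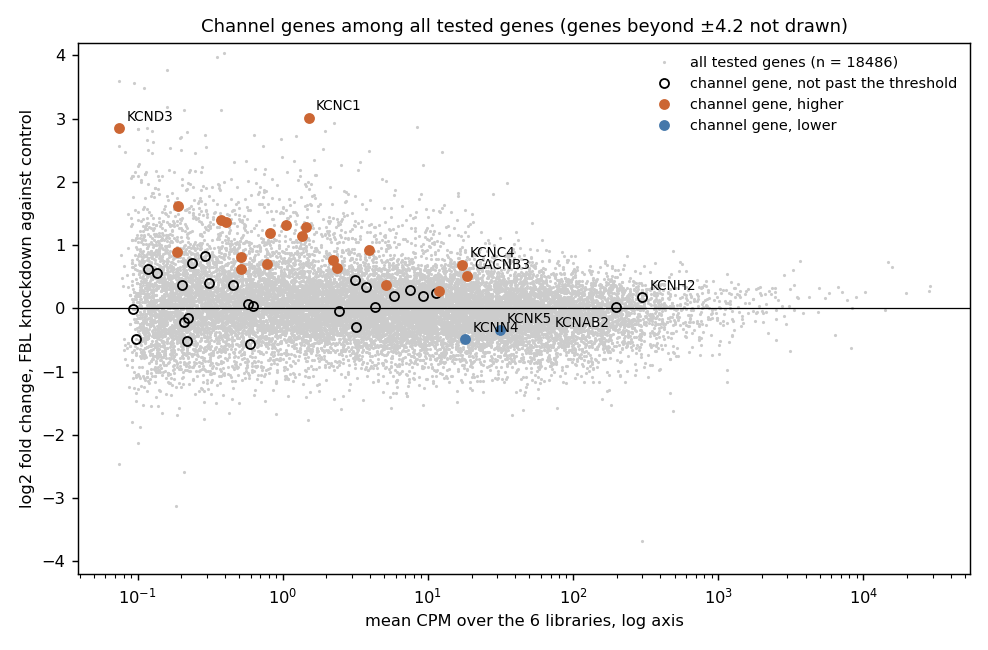
Log2 fold change (FBL knockdown against control) against the mean CPM over 6 libraries (log axis) for the 18486 tested genes (grey) and the 48 tested channel genes (circles; orange higher, blue lower, open not past the threshold). The 20 orange circles spread from under 0.1 to above 10 CPM, and both blue circles lie between 10 and 100 CPM.

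Channel genes were called higher in each range of mean CPM, taken over all 6 libraries. Under 1 CPM, 9 of 24 channel genes were higher (37.5%, against 13.5% of all genes at that level) and 0 were lower (5.21% of all; 1 gene, KCND1, was lower at an unadjusted p under 0.05). Between 1 and 10 CPM, 8 of 16 were higher (50%, against 17.3%) and 0 lower (14.3% of all; 1 gene, KCNJ14, was lower at an unadjusted p under 0.05). At 10 CPM or more, 3 of 8 were higher (37.5%, against 16.2%) and 2 lower (27.7% of all). Medians in these 3 ranges were 0.59, 0.41 and 0.21 for channel genes beside 0.10, 0.01 and -0.06 for all tested genes. Because the mean includes the knockdown libraries, a rise can lift a gene into a higher range. KCNC1, KCNIP3, CACNA1H and CACNA2D2 had control means under 1 CPM (0.331, 0.599, 0.846 and 0.849 CPM) and reached the middle range through the knockdown libraries. A filter on low counts favours genes that are high in either group. Of the 48 tested genes, 41 reached 10 counts in all 3 controls, and 17 of the 20 genes that rose and both that fell are among these. The other 7 (CACNA1A, CACNA1G, KCND3, KCNIP4, KCNJ18, KCNN3 and SCN4B) were under it in a control, and 3 of them were called higher, so those 3 give no independent weight to the count.

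**Figure D3:**
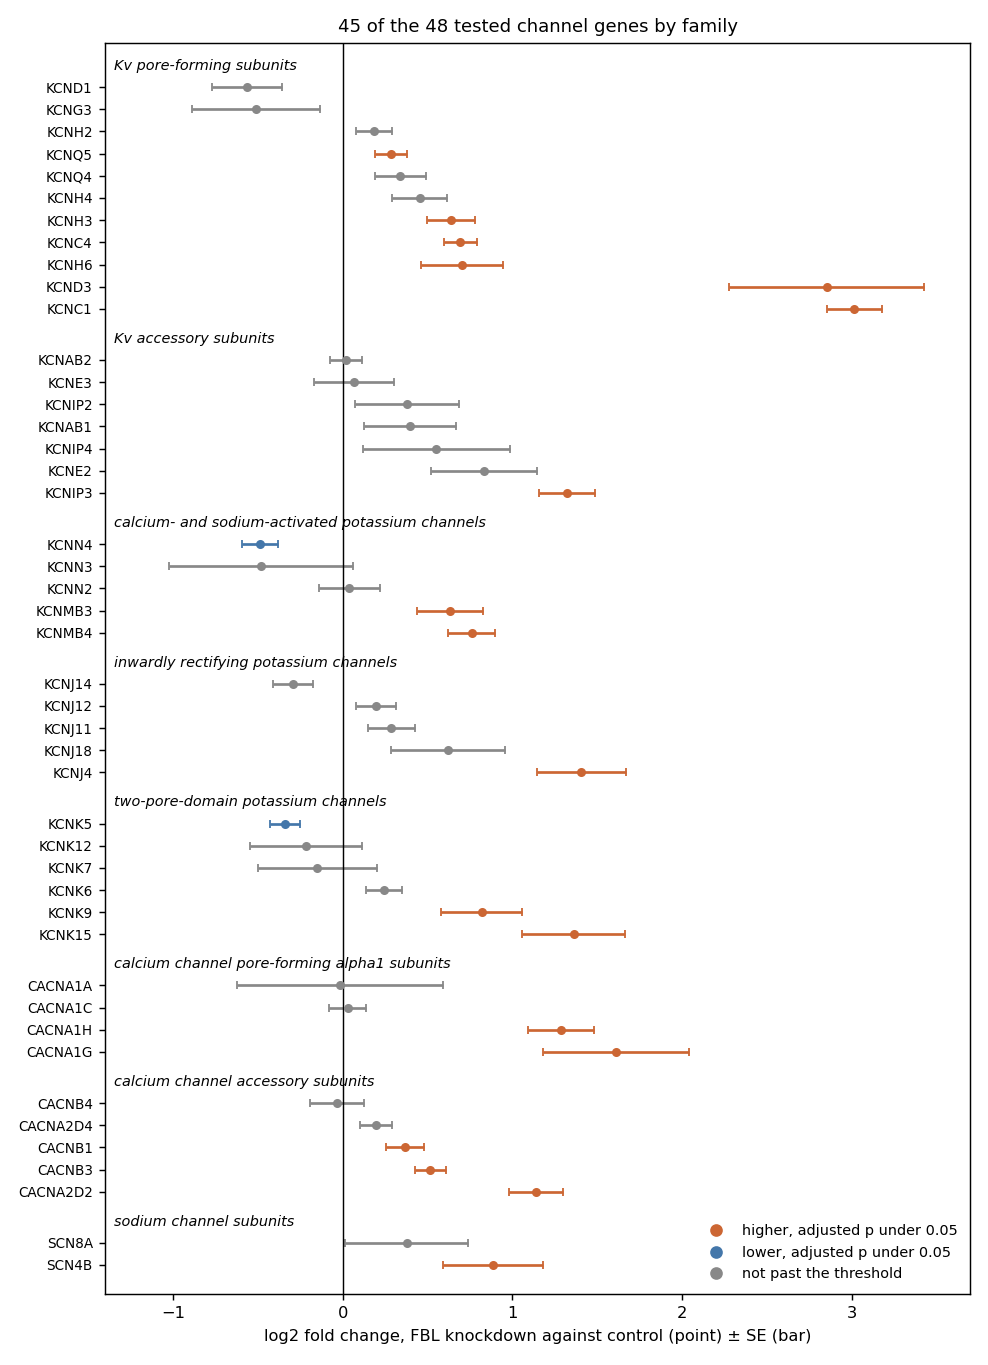
Log2 fold change ± SE for 45 of the 48 tested channel genes, grouped by family (orange higher, blue lower, grey not past the threshold). Every family drawn has at least 1 gene that rose, and the 2 genes that fell are in the calcium-activated and tandem-pore families.

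Pore-forming subunits of voltage-gated potassium channels held the largest rise. In what follows, values in brackets with ± are log2 fold changes and their SE, with the edgeR adjusted p. Of 24 genes of this kind, 12 were tested and 6 rose, beside 15.8% of all tested genes called higher. Their median log2 fold change was 0.54. KCNC1 (ENSG00000129159, plus strand, chromosome 11, 17734774 to 17856804) encodes a Shaw-type channel known for letting neurons fire fast. It had 0.289, 0.368 and 0.336 CPM in the controls and 2.60, 2.74 and 2.74 CPM in the knockdown libraries. The knockdown libraries were close to each other and all far above the controls. Its mean rose 8.13-fold, from 0.331 ± 0.0397 to 2.69 ± 0.0803 CPM (SD, n = 3), with a log2 fold change of 3.02 ± 0.16 and an adjusted p of 6.69e-06. KCNC4, a relative of KCNC1 from the same Shaw subfamily, was higher per length in both groups and rose less. It had 12.6, 14.3 and 12.6 CPM in the controls and 23.01, 20.7 and 20.2 CPM in the knockdown libraries, a rise of 1.62-fold (0.69 ± 0.10 in log2, adjusted p 0.000408). No control library reached the lowest knockdown library in either gene.

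KCND3, which forms the transient outward current of heart and brain, was close to the limit of detection. It had 0, 2 and 3 counts in the controls and 11, 12 and 13 counts in the knockdown libraries. The 5 counts against 36 give a ratio of 7.70 after scaling for depth, with a 95% counting interval of 3.01 to 25.1 that covers counting error only, and edgeR's fitted value was 2.85 ± 0.57 (adjusted p 0.00285). Such a gene passed the filter only through the knockdown libraries. KCNH3, an ether-a-go-go-type channel of the forebrain, had 1.55, 1.96 and 2.06 CPM in the controls and 2.93, 2.65 and 3.09 CPM in the knockdown libraries and rose 1.56-fold (0.64 ± 0.14, adjusted p 0.00643). KCNQ5, which contributes to the M-current that restrains neuronal firing, had 11.4, 9.84 and 10.99 CPM in the controls and 12.6, 13.3 and 13.4 CPM in the knockdown libraries. The groups were apart by little more than 1 CPM, and the log2 fold change was 0.28 ± 0.10 (adjusted p 0.0424). KCNH6, another relative of KCNH2, had 0.590, 0.502 and 0.682 CPM in the controls and 0.694, 0.932 and 1.27 CPM in the knockdown libraries, and its lowest knockdown library was close to its highest control (0.70 ± 0.24, adjusted p 0.045).

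The dominant KCNH2 itself did not pass the test. It had 250.1, 317 and 274 CPM in the controls and 352, 294 and 308 CPM in the knockdown libraries, so the groups overlapped (0.18 ± 0.11, adjusted p 0.217). KCNH2 did not pass in 18 of 19 alternative fits either. The exception was the fit without control replicate 2, its highest control library (log2 fold change 0.28, adjusted p 0.0357). KCND1, a relative of KCND3, went the other way, from 0.705 ± 0.0726 to 0.475 ± 0.0915 CPM, without passing (-0.57 ± 0.21, adjusted p 0.0555), although its groups did not overlap. KCNH4, of the ether-a-go-go type, was just outside the threshold (0.45 ± 0.16, adjusted p 0.0523). Summed RPKM of this family was 52.1 ± 6.23 in the controls and 59.9 ± 6.07 in the knockdown (SD, n = 3), most of it from KCNH2.

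Accessory subunits of the voltage-gated potassium channels had 1 gene that rose among 7 tested of 11, near the 15.8% of all tested genes called higher, and a median log2 fold change of 0.40. KCNIP3, a calcium-binding protein that assembles with KCND channels and is also known as the transcriptional repressor DREAM, had 0.547, 0.696 and 0.554 CPM in the controls and 1.45, 1.47 and 1.57 CPM in the knockdown libraries. All knockdown libraries were more than 2-fold above all controls, and the mean rose 2.50-fold (1.32 ± 0.17, adjusted p 0.000235). The abundant beta subunit gene KCNAB2 had 178, 216 and 198 CPM in the controls and 216, 185 and 201 CPM in the knockdown libraries. Its groups overlapped almost wholly, and with a log2 fold change of 0.02 ± 0.10 it did not pass (adjusted p 0.893). KCNE2, a small partner of KCNH2 and KCNQ channels, was at 0.211 ± 0.0866 and 0.374 ± 0.0803 CPM and did not pass either (0.83 ± 0.31, adjusted p 0.0636); 34.2% of its exon bases overlap an antisense gene at 0.184 CPM.

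**Figure D4:**
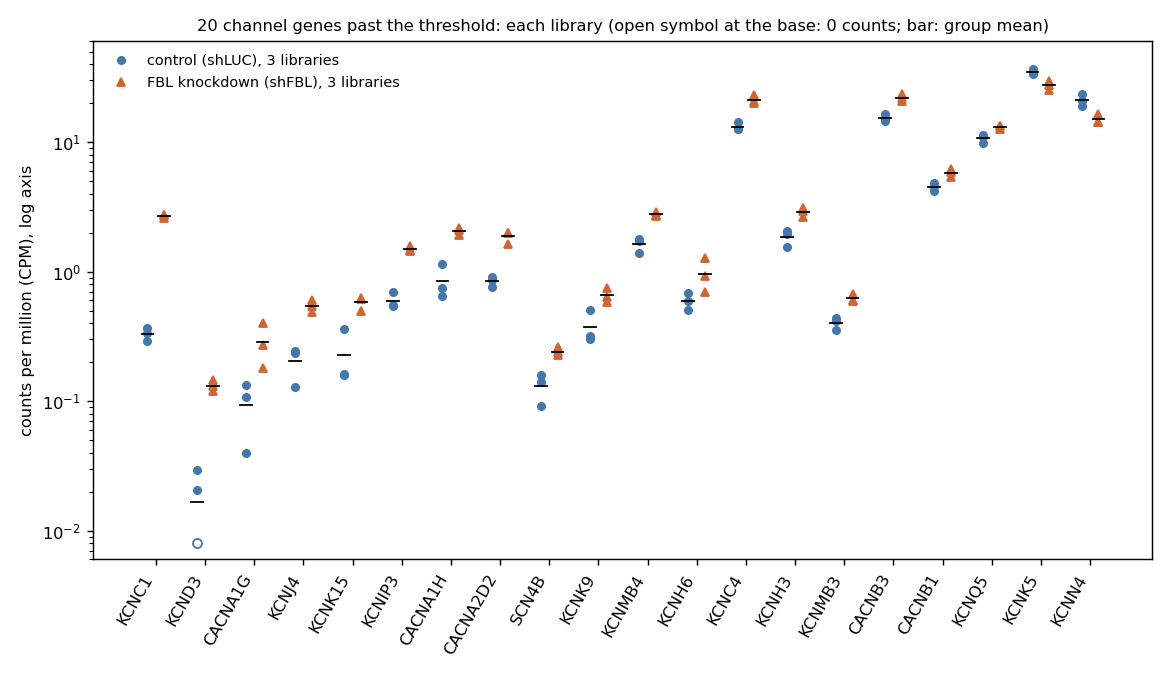
CPM (log axis) of each library for 20 of the 22 channel genes past the threshold, controls as blue circles and FBL knockdown as orange triangles, with a bar at each group mean. KCNC1 has the widest gap among genes with counts in every library, KCND3 has 1 control library with 0 counts (open circle), and KCNK5 and KCNN4 are the pair in which the knockdown lies below.

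Calcium- and sodium-activated potassium channels had 5 tested genes of 10. Of these 2 rose and 1 fell, beside 15.8% higher and 17% lower among all tested genes, and the fall is near that share. The beta subunit genes KCNMB4 and KCNMB3 rose, the pore gene KCNN4 fell, and the pore genes KCNN2 and KCNN3 did not pass. KCNN4 (ENSG00000104783, minus strand, chromosome 19, 43766533 to 43781261) encodes the intermediate-conductance calcium-activated channel of red cells and lymphocytes. It had 19.1, 23.5 and 20.7 CPM in the controls and 16.6, 14.2 and 14.3 CPM in the knockdown libraries. Its mean fell from 21.1 ± 2.26 to 15.04 ± 1.35 CPM, 1.40-fold lower (-0.49 ± 0.11, adjusted p 0.00556). All controls were above all knockdown libraries, the nearest pair being 19.1 and 16.6 CPM. KCNMB4, a beta subunit of the large-conductance BK channel known from neurons, had 1.78, 1.74 and 1.39 CPM in the controls and 2.74, 2.69 and 2.89 CPM in the knockdown libraries and rose 1.69-fold (0.76 ± 0.14, adjusted p 0.00195). KCNMB3, another BK beta subunit gene, had 0.418, 0.440 and 0.356 CPM in the controls and 0.672, 0.607 and 0.598 CPM in the knockdown libraries (0.63 ± 0.20, adjusted p 0.0297). Its value is uncertain, since 37.9% of its exon bases lie opposite PIK3CA, which was at 1.31 CPM and itself rose by 0.65 on the log2 scale (adjusted p 0.00547), and the strand setting of the counting is not given in the sources used here. KCNN2, a small-conductance relative of KCNN4, was at 0.614 ± 0.0641 and 0.630 ± 0.0211 CPM (0.04 ± 0.18, adjusted p 0.892).

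Among inward rectifiers, which pass potassium more easily into the cell and hold the resting potential, 5 of 13 genes were tested and 1 rose, near the 15.8% of all tested genes called higher. KCNJ4, a strong rectifier of heart and brain, had 0.129, 0.246 and 0.237 CPM in the controls and 0.607, 0.488 and 0.541 CPM in the knockdown libraries and rose 2.68-fold (1.40 ± 0.26, adjusted p 0.00231). Part of it, 12.6% of its exon bases, lies opposite an antisense gene at 0.0979 CPM. KCNJ11, the pore of ATP-sensitive channels and the highest of its family per length, had 5.83, 8.03 and 6.62 CPM in the controls and 9.48, 7.42 and 8.07 CPM in the knockdown libraries. The groups overlapped (0.29 ± 0.14, adjusted p 0.138), and KCNJ11 did not pass in 17 of 19 alternatives either. Without control replicate 2 the adjusted p was 0.0124 at a log2 fold change of 0.42. KCNJ12 and KCNJ18 are near-identical copies whose reads the counting could split, and neither passed. The lower mean of KCNJ14 in the knockdown, 2.86 ± 0.126 against 3.50 ± 0.303 CPM, did not pass (-0.29 ± 0.12, adjusted p 0.0832); 8.06% of its exon bases are shared with GRWD1, a gene at 160 CPM that fell by 0.47 on the log2 scale (adjusted p 0.00286).

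Tandem-pore channels carry the background potassium leak. Of 10 genes 6 were tested, 2 rose and 1 fell, beside 15.8% higher and 17% lower among all tested genes. The single fall is near that share. KCNK5 (ENSG00000164626, minus strand, chromosome 6, 39188973 to 39229450), an acid-sensitive leak channel that also takes part in volume regulation of lymphocytes, was the most abundant. It had 34.2, 36.8 and 33.4 CPM in the controls and 29.4, 25.4 and 27.5 CPM in the knockdown libraries. Its mean fell from 34.8 ± 1.79 to 27.5 ± 2.02 CPM, 1.27-fold lower (-0.34 ± 0.09, adjusted p 0.0133). The weak genes KCNK15 and KCNK9, close relatives of the TASK type, moved the other way. KCNK15 had 0.161, 0.358 and 0.158 CPM in the controls and 0.499, 0.628 and 0.620 CPM in the knockdown libraries (1.36 ± 0.30, adjusted p 0.00601), and 19.5% of its exon bases lie opposite RIMS4, which was at 0.0715 CPM. KCNK9 had 0.3001, 0.502 and 0.316 CPM in the controls and 0.640, 0.748 and 0.587 CPM in the knockdown libraries, with 1 control close to the knockdown range (0.82 ± 0.24, adjusted p 0.0229). KCNK6, the next gene by level, had its lowest knockdown library above its highest control without passing (0.24 ± 0.11, adjusted p 0.106). Summed over the family, RPKM was 11.3 ± 0.777 in the controls and 9.85 ± 0.661 in the knockdown (SD, n = 3).

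Both T-type calcium channel genes that were tested rose, though 1 of them, CACNA1G, had few counts. T-type channels open near the resting potential and let in small calcium currents. CACNA1H had 0.750, 1.14 and 0.653 CPM in the controls and 2.17, 2.11 and 1.91 CPM in the knockdown libraries, a rise of 2.44-fold (1.29 ± 0.20, adjusted p 0.00072). CACNA1G had 0.107, 0.133 and 0.0395 CPM in the controls and 0.401, 0.271 and 0.180 CPM in the knockdown libraries (1.61 ± 0.43, adjusted p 0.0152). With only 4 counts in control replicate 3, CACNA1G passed the filter only with the help of the knockdown libraries. Its call was lost in 5 of 18 alternatives. CACNA1C, the L-type channel of heart and smooth muscle and the calcium channel pore gene with the most counts, was level at 4.30 ± 0.234 and 4.38 ± 0.232 CPM, with groups that overlapped (0.03 ± 0.11, adjusted p 0.865). CACNA1A did not pass either. The table held 10 pore-forming calcium channel genes, of which these 4 were tested and 2 rose, beside 15.8% of all tested genes called higher.

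Accessory subunits of calcium channels bring the pore to the membrane and tune its gating. Of 13 genes 5 were tested and 3 rose, beside 15.8% of all tested genes called higher. CACNB3 (ENSG00000167535, plus strand, chromosome 12, 48813794 to 48828941), a beta subunit also studied in lymphocytes, was the most abundant and had 14.5, 16.4 and 15.3 CPM in the controls and 23.5, 20.8 and 21.7 CPM in the knockdown libraries. The lowest knockdown library was above the highest control by more than the controls differed among themselves, and the mean rose from 15.4 ± 0.936 to 22.02 ± 1.32 CPM (0.51 ± 0.09, adjusted p 0.00172). CACNA2D2, an alpha-2-delta subunit, had 0.868, 0.768 and 0.910 CPM in the controls and 1.64, 1.99 and 1.99 CPM in the knockdown libraries and rose 2.21-fold (1.14 ± 0.16, adjusted p 0.000406); 9.59% of its exon bases lie opposite a gene at 0.141 CPM. CACNB1, the beta subunit of skeletal muscle, had 4.87, 4.51 and 4.17 CPM in the controls and 5.84, 6.23 and 5.39 CPM in the knockdown libraries (0.37 ± 0.11, adjusted p 0.0277). CACNA2D4 (0.19 ± 0.10, adjusted p 0.146) and CACNB4 (-0.04 ± 0.16, adjusted p 0.885) did not pass. Summed RPKM of the accessory genes was 4.14 ± 0.152 in the controls and 5.56 ± 0.287 in the knockdown (SD, n = 3).

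Sodium channel genes were weak. Of 10 genes for their alpha and beta subunits, 4 were tested and 3 rose, beside 15.8% of all tested genes called higher. SCN8A, an alpha subunit gene best known from neurons, did not pass (0.38 ± 0.36, adjusted p 0.459). SCN4B encodes a beta subunit, a single-pass adhesion protein that modifies sodium channel gating, and had 0.139, 0.0921 and 0.158 CPM in the controls and 0.260, 0.238 and 0.226 CPM in the knockdown libraries (0.89 ± 0.30, adjusted p 0.0405). Its groups did not overlap. With 9 counts in control replicate 2, SCN4B passed the filter only with the help of the knockdown libraries. Its call was lost in 12 of 18 alternatives.

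Single libraries decided some of these calls. Without each library in turn, 13 of the 22 genes stayed past the threshold in every fit, among them CACNA1H, CACNA2D2, CACNB3, KCNC1, KCNC4, KCND3, KCNH3, KCNIP3, KCNJ4, KCNK15 and KCNMB4. KCNN4 lost its call without knockdown replicate 3 (adjusted p 0.0525). KCNK5 lost it without knockdown replicate 2 (0.0681) or 3 (0.0857). KCNK9 lost it without control replicate 1 (0.0615) or 3 (0.0945) or knockdown replicate 2 (0.102). CACNB1 lost it without control replicate 3 (0.125) or knockdown replicate 1 (0.0589) or 2 (0.112), and CACNA1G without control replicate 3 (0.0666) or knockdown replicate 1 (0.0605) or 2 (0.0524). KCNQ5 kept its call only without control replicate 1, and lost it without control replicate 2 (0.104) or 3 (0.108) or knockdown replicate 1 (0.0557), 2 (0.119) or 3 (0.106). KCNMB3 lost its call without control replicate 1 (0.0565) or 3 (0.117) or knockdown replicate 1 (0.0808), 2 (0.0742) or 3 (0.0566). KCNH6 lost its call without control replicate 1 (0.0659), 2 (0.0587) or 3 (0.0647) or knockdown replicate 2 (0.111) or 3 (0.168). SCN4B lost it without any 1 of the 6 libraries (adjusted p 0.0603 to 0.147). Every one of these values is an edgeR adjusted p over all genes tested in that fit, and no direction changed. The number of channel genes called higher was 13 without control replicate 3. The number called lower was 1 without knockdown replicate 2 and 0 without knockdown replicate 3.

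**Figure D5:**
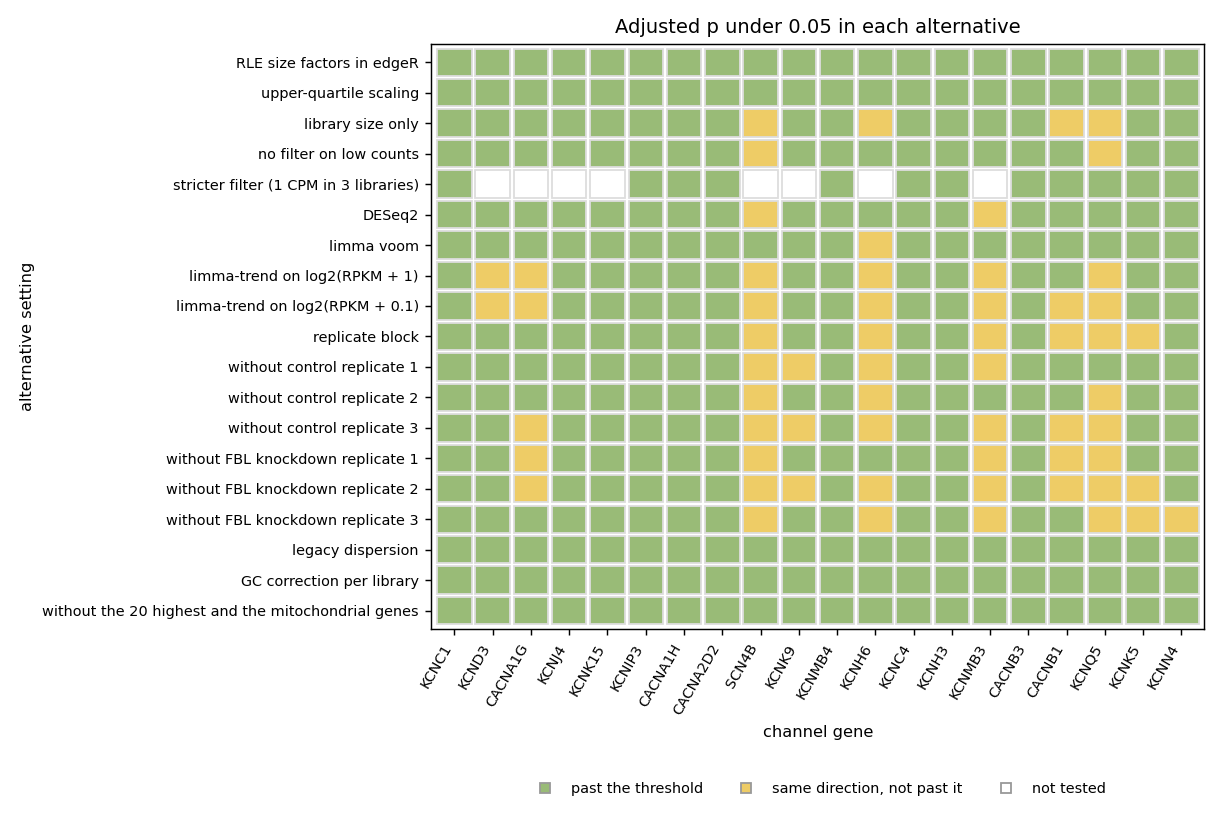
Each of 20 of the 22 channel genes past the threshold (columns) in each of the 19 alternative settings (rows): green where the adjusted p stayed under 0.05, yellow where the direction was the same but the adjusted p was not, white where the gene was not tested. The 8 columns KCNC1, KCNIP3, CACNA1H, CACNA2D2, KCNMB4, KCNC4, KCNH3 and CACNB3 are green throughout.

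Channel transcripts are rich in G and C and long. Median transcript GC content was 57.3% in the 48 tested channel genes and 49.6% in all tested genes, and median length 6023 against 3671 bases. Among the genes with a GC content of 56.8% or more, the richest of 4 equal groups, 21.0% of all genes were called higher, beside 12 of the 26 channel genes in it (46.2%). After a correction for GC content within each library, 27 channel genes were higher and 3 lower. The share of all tested genes called in that fit is not given here. It is therefore not known whether the larger count is particular to channel genes. Across the 48 genes the log2 fold change had a Spearman correlation of 0.0746 with GC content and -0.22 with log mean CPM, against 0.00132 and -0.152 across all tested genes; genes are not independent replicates, and these are descriptions.

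Genes that work beside these channels were taken from lists of other symbols. Among channel partner and scaffold genes, 14 of 29 in the table were tested, 4 rose and 1 fell (beside 15.8% and 17% of all genes), and the median log2 fold change was 0.01. DLG4, a synaptic scaffold gene, rose by 0.54 ± 0.08 in log2 (adjusted p 0.000795). The list had 2 genes higher without knockdown replicate 2 and 0 lower without control replicate 1 or 3 or knockdown replicate 2 or 3. Of the other voltage-sensing and cation channel genes, 25 of 31 were tested, 11 rose and 2 fell (beside 15.8% and 17%), with a median of 0.26. HCN2, a pacemaker channel gene, had 9.33, 14.1 and 11.8 CPM in the controls and 24.05, 19.6 and 20.7 CPM in the knockdown libraries (0.87 ± 0.14, adjusted p 0.00114). TRPC1 (0.98 ± 0.22, adjusted p 0.00589) and TMEM38A, a potassium-permeable channel of the sarcoplasmic reticulum (0.90 ± 0.10, adjusted p 0.000117), also rose. The 2 calls of lower genes became 1 without control replicate 2 and 0 without control replicate 3 or knockdown replicate 2 or 3.

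Calcium entry and store genes had 20 tested of 24, with 7 higher, 3 lower (beside 15.8% and 17% of all tested genes) and a median of 0.16. The calcium release channel gene RYR1 rose by 1.13 ± 0.16 (adjusted p 0.00042), the mitochondrial uniporter gene MCU rose by 0.71 ± 0.10 (0.000387), and the plasma membrane calcium pump gene ATP2B4 changed by -0.76 ± 0.10 (0.000315). Only 4 of these genes were higher without control replicate 3, knockdown replicate 2 or knockdown replicate 3. Sodium and potassium pump and cotransporter genes had 12 tested of 17, with 4 higher, 2 lower (beside 15.8% and 17%) and a median of -0.07. Summed CPM of this list was 699.6 to 745.7 in the controls and 575.7 to 638.4 in the knockdown libraries, without overlap. SLC12A5, the neuronal potassium-chloride cotransporter gene, rose by 0.91 ± 0.16 (adjusted p 0.00175). The count of lower genes in this list was 1 without control replicate 3 or knockdown replicate 2 or 3.

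Chloride channel genes had 13 tested of 21, with 2 higher, 2 lower and a median of 0.04, which is near the shares of all tested genes (15.8% and 17%). CLIC1 changed by -0.57 ± 0.07 (adjusted p 0.000265) and the volume-regulated channel gene LRRC8D by 0.43 ± 0.12 (0.0212), a call lost without knockdown replicate 2 (0.0801) or 3 (0.0828). The list then had 1 gene higher; it had 1 lower without control replicate 1 or 3 or knockdown replicate 1 or 3. BEST1 was called higher (0.73 ± 0.09, adjusted p 0.000185), but 14.2% of its exon bases lie opposite FTH1, a ferritin gene at 563 CPM that rose by 0.71 on the log2 scale (adjusted p 0.000188), so BEST1 counts are uncertain. All 17 genes of the REST repressor complex list were tested; 2 rose and 5 fell, beside 15.8% higher and 17% lower among all tested genes and 27.7% lower among those at 10 CPM or more, and the median was -0.03. REST, which represses neuronal channel genes in other cells, had 8.54, 6.26 and 7.46 CPM in the controls and 5.79, 6.52 and 6.44 CPM in the knockdown libraries. With -0.25 ± 0.13 and an adjusted p of 0.158 it did not pass. Nor did it pass in 17 of 19 alternatives, where the adjusted p reached 0.4035. The 2 exceptions were the fit without control replicate 2 (log2 fold change -0.36, adjusted p 0.0194) and the GC correction (-0.25, 0.0206). RCOR2 rose by 1.31 ± 0.17 (adjusted p 0.000273), while HDAC1 (-0.70 ± 0.15, 0.00407) and the demethylase gene KDM1A (-0.61 ± 0.09, 0.000677) fell.

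Marker genes of cell types known for these channels were read from the same fit, and some of them rose. Of 15 neuron markers 11 had a row, 8 of these under 1 CPM, and 6 were tested. RBFOX3, GAD1, SLC17A7, SYN1 and SYP rose and TUBB3 fell, beside 15.8% higher and 17% lower among all tested genes. The neuron markers summed to between 20.9 and 23.2 CPM in the controls and between 27.8 and 30.3 CPM in the knockdown libraries, most of it SYP. The neuron genes STMN2, MAP2 and NEFL had at most 3 counts over all 6 libraries. Of 2 glia markers tested 1 rose, and the list summed to 5.97 to 8.05 CPM in the controls and 8.53 to 9.07 CPM in the knockdown. The 4 heart and skeletal muscle markers tested had adjusted p between 0.142 and 0.423, with sums of 2.67 to 2.68 CPM in the controls and 2.71 to 2.86 CPM in the knockdown. The 5 smooth muscle and fibroblast markers tested had adjusted p between 0.0876 and 0.679 (sums of 10.6 to 10.8 and 10.03 to 12.1 CPM), and CDH5, the only endothelial or epithelial marker tested, had an adjusted p of 0.0831 (sums of 0.266 to 0.322 and 0.293 to 0.336 CPM). All 6 samples were labelled as the Kasumi-1 line, and these marker values do not show that other cell types were present. How the marker values relate to the channel values was not tested.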

How the data were processed

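Libraries came from total RNA of 6 Kasumi-1 samples and a NEBNext Ultra kit, per the labels' protocols. The authors deposited whole-number counts per Ensembl gene for 31966 genes with gene lengths, and a second table of RPKM values; the deposited RPKM follow from the counts, the lengths and the TMM-scaled totals (191796 of 191796 values within 1e-06). Trimming with cutadapt 1.18 and the use of HISAT2, featureCounts, edgeR and GRCh38 are known from the submitters' processing notes. Strandedness of the counting, its annotation and its handling of multi-mapping reads were not given in the sources used here, so reads of near-identical, overlapping or antisense genes cannot be told apart. Every row had an Ensembl identifier, but 7977 of the 31966 had no symbol and could not be reached by a rule on symbols.

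Counts were filtered with filterByExpr (minimum count 10, minimum total 15), which left 18486 genes, scaled by TMM and compared between 3 and 3 libraries with the quasi-likelihood test of edgeR 4.0.16 in R 4.3.3 on group alone, with Benjamini-Hochberg adjustment over all genes tested and a threshold of 0.05. SE were derived from the F statistic. Families and gene lists were described by counts and medians from that fit, with no test of a list. Positions came from GENCODE v29 (GRCh38), matched for 31848 of the 31966 rows, and upstream sequences from RefSeq (GRCh38.p14). Replicates of a group differed by more than sampling noise (chi-square per degree of freedom 36.8 to 116). Each was counted as 1 sample, as labelled. The excess does not show whether the replicates were separate cultures.

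The channel genes and the gene lists were chosen with earlier results of these data known. Genes named were FBL, all channel genes past the threshold at a mean of 1 CPM or more, of those under 1 CPM up to 6 per direction by smallest p, the member with the highest mean RPKM of each family, up to 3 genes per other list with the largest change past the threshold at a mean of 1 CPM or more, and REST. Other channel genes named were chosen after their values were seen. A few genes that the rule names are not reported here, though they stay in the counts.

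Alternatives were other scalings (RLE, upper quartile, library size), no filter and a stricter one (1 CPM in 3 libraries), DESeq2 1.42.0, limma 3.58.1 (voom, and limma-trend on log2 of the RPKM plus 1 or plus 0.1), a replicate block and the omission of each library. Legacy dispersion, a GC correction per library and a fit without the 20 highest and the mitochondrial genes were added after the data were seen.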

Additional observations from a re-analysis of the deposited data

How the results depend on the processing

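FBL was past the threshold in all 19 alternatives, at log2 fold changes of -3.85 to -3.49. The number of channel genes detected was 48 with at least 10 counts in 3 libraries and 24 at a mean of at least 1 CPM, in place of 101 with any count. The channel genes called higher numbered 12 with the stricter filter, which tests 24 of them, and 13 with limma-trend on log2(RPKM + 0.1). The cause of the latter was not tested. The shares of all tested genes called in the alternatives are not given here, so their counts have no such share beside them. Leaving out 1 library gave 13 to 23 higher and 0 to 3 lower, and a median log2 fold change of 0.38 to 0.55. That median was 0.0637 with limma-trend on log2(RPKM + 1) and 0.21 with a pseudocount of 0.1, where the pseudocount shrinks changes of low genes. The replicate numbers did not pair the samples (correlations of the deviations of same-numbered samples -0.462, -0.377 and 0.127, and not every sample correlated best with its own number); with the replicate block 15 channel genes were higher and 1 was lower. Of the 22 calls, 12 were kept in every alternative in which the gene was tested, and no log2 fold change of a called gene reversed. KCNN4 lost its call in 1 alternative and KCNK5 in 3. Depth limits the 53 genes that were not tested, none of which exceeded a mean of 0.0864 CPM.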

Other observations

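The 53 channel genes with too few counts to test are described here by their raw counts. They summed to 149 counts over the 3 controls and 270 counts over the 3 knockdown libraries. The mean CPM was higher in the knockdown for 32 of them and lower for 21, and 12 had counts in the knockdown libraries only and 11 in the controls only. KCNN1, a small-conductance calcium-activated channel gene, had the most, with 1, 6 and 5 counts in the controls and 14, 7 and 15 in the knockdown libraries. KCNMB1, the smooth muscle beta subunit gene of the BK channel, had 0, 3 and 0 counts in the controls and 7, 8 and 9 in the knockdown libraries. KCNS1, an electrically silent subunit gene, had 4, 3 and 4 against 7, 11 and 12 counts. KCNAB3, a relative of KCNAB2, had 10, 4 and 7 against 5, 6 and 6 counts. These genes were chosen after their counts were seen, and no test was made.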
